A study of Sus scrofa with 30 samples.

Results

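The plasma miRNAs of irradiated minipigs at 20d, the last time point of the series, were compared with those at 10d, 14d and 17d after total body irradiation (TBI). The members were chosen by time point and depth: every library of these 4 time points with a total of at least 1000 counts. This gave 8 of the 30 libraries of the series, 2 at 20d and 6 at 10d to 17d, all from minipigs 1 and 2. The animals were young male Göttingen minipigs (Sus scrofa), a small pig breed used in radiation research. All had received 2.2 Gy of cobalt-60 gamma rays to the whole body, injections of dextrose as the vehicle group of a drug study, and oral antibiotics while neutrophils were low. The study's text states that none of its 3 animals survived, so 20d is a late sample of animals that did not recover. No unirradiated animal was sampled at these times, and the pre-TBI libraries of the same 2 minipigs, taken 7 days (C7) and 1 day (C1) before TBI, are given as reference levels only. The libraries of minipig 3 at 10d to 20d held at most 17 counts and were left out.

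MicroRNAs (miRNAs) are short RNAs that pair with messenger RNAs and lower their translation or stability. Plasma carries miRNAs in vesicles and bound to proteins, and they come from blood cells, the vessel wall and solid organs. Each miRNA hairpin is cut into a 5p and a 3p arm, and either arm can be the one that is kept. After TBI the bone marrow stops supplying blood cells, so that red cells, platelets and leukocytes fall in the weeks that follow and rise again only if the marrow regrows. In plasma, fewer cells of a type and less RNA released per cell cannot be told apart.

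The 2 libraries at 20d were deeper than those at 10d to 17d. They held 401408 counts in minipig 1 and 550316 in minipig 2, against 29159 to 103083 at 10d to 17d and 24341 to 259716 before TBI. Within a minipig, the 20d total was 4.86 to 13.8 times that of the earlier libraries in minipig 1 and 5.34 to 15.4 times in minipig 2. On the log2 scale the total was 18.84 ± 0.32 at 20d (SD, n = 2) and 15.79 ± 0.70 at 10d to 17d (SD, n = 6). An exact permutation test within minipigs gave p = 0.0625 (two-sided), which is the smallest p that its 16 arrangements allow (0.438 after Benjamini-Hochberg adjustment over 7 measures per library). Depth and time point therefore cannot be told apart in these 8 libraries. After every library was thinned to 29159 counts, 402 and 398 miRNA rows were detected at 20d, against 402 to 407 at 10d to 17d.

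**Figure D1:**
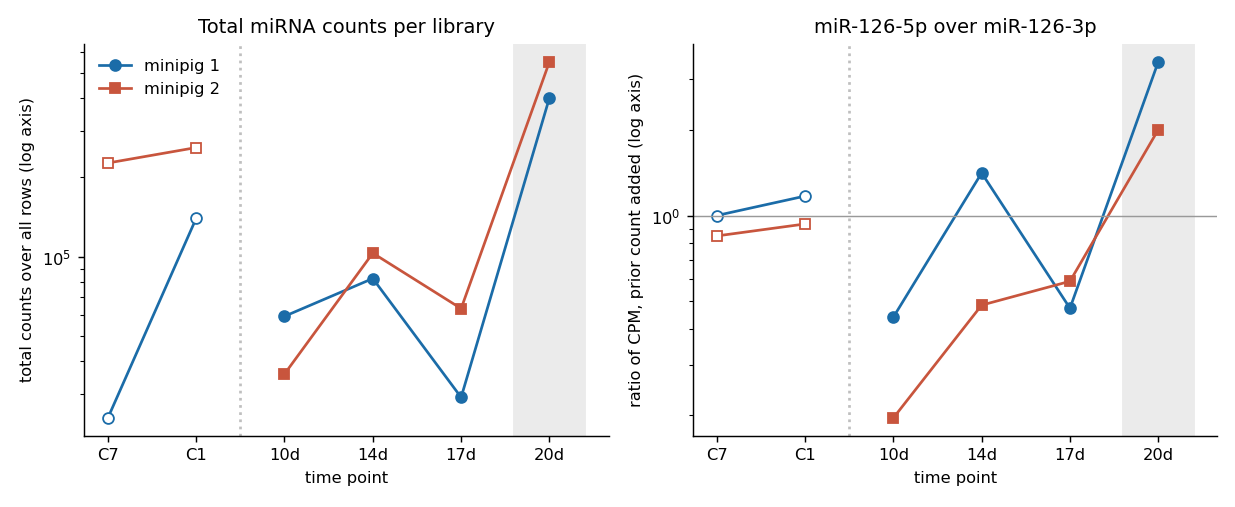
Total counts over all miRNA rows (left) and the ratio of miR-126-5p to miR-126-3p CPM, with a prior count added (right), at C7, C1 and 10d to 20d in minipigs 1 and 2, both on log axes. Open symbols are pre-TBI libraries and the grey band marks 20d. The 20d totals, 401408 and 550316, lie above those of the other libraries shown, and the 20d ratios, 3.46 and 2.0, lie above every earlier ratio shown.

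The library of minipig 1 at 17d stood apart from most of the rest. It had the lowest total (29159 counts), and its Spearman correlation with the C1 library of the same animal, taken across miRNAs, was 0.48, against 0.78 to 0.96 for the other 7 libraries. With the C7 library of that animal the correlation was 0.752, and with its 10d library 0.793. miR-4332, the row with the highest mean level, took 0.83% of the counts of this 17d library. It took 8.01% to 16.2% in the other 5 libraries at 10d to 17d and 19.1% and 12.7% at 20d. In a principal component analysis of the 8 libraries the 17d library of minipig 1 lay at -31.08 on PC1 (56.3% of the variance). Minipig 1 at 10d was next at -17.28 and the other 6 lay between 0.12 and 18.14. The 2 libraries at 20d lay at 5.13 and 18.14 and so did not separate from the earlier ones on this axis.

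The root mean square distance of a library from the mean of its own pre-TBI libraries, on log2 CPM (counts scaled to library size), was 0.92 in minipig 1 and 1.26 in minipig 2 at 20d. It was 0.75 to 1.62 at 10d to 17d. The difference was 0.0098 (exact permutation test within minipigs, two-sided, p = 0.938). The 20d libraries were thus inside the range of distances of the 6 earlier ones when both minipigs were pooled. Within minipig 2, 20d had the largest distance, 1.255, against 0.970, 1.004 and 1.251 at 10d, 14d and 17d. Within minipig 1 it was 0.924, against 0.888, 0.745 and 1.62. The Spearman correlations of the 20d libraries with their own C1 library were 0.94 and 0.80. The pre-TBI mean of minipig 1 includes its C7 library, which held 24341 counts and differed from its C1 library. In minipig 1, the C7 library correlated at 0.911 with 10d, 0.752 with 17d and 0.715 with 20d. The C1 library gave 0.802, 0.48 and 0.94. The part of this mixed reference in the distances was not tested.

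With edgeR's quasi-likelihood test on TMM-scaled counts, no miRNA passed an adjusted p under 0.05 between 20d and 10d to 17d. The call rate was 0.00%, with a smallest Benjamini-Hochberg adjusted p of 0.723. DESeq2's Wald test also made 0 adjusted calls, and 44 without adjustment. At an unadjusted p under 0.05, the threshold of the study, 17 rows were called (4.14%), where 20.6 would be expected by chance. Of these, 4 were higher at 20d (0.973%) and 13 were lower (3.16%). With RLE size factors in place of TMM, 7 were higher and 5 lower. Of all rows, 162 had a log2 fold change above 0 and 249 below it. The median log2 fold change of all rows was -0.15 with TMM, -0.07 with RLE and 0.03 with library size alone, and each value below is read against that shift.

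With the minipig as a replicate block, 29 rows were called without adjustment (7.06%), 5 higher (1.22%) and 24 lower (5.84%), and 0 after it. The 29 included 14 of the 17. Many of these calls were lost or gained when a single library was left out. Without minipig 1 at 17d, 10 rows were higher (2.43%) and 0 lower, and none of the 13 lower calls was kept, whereas all 4 higher calls were. Most lower rows kept much of their size without it, such as miR-135 (log2 fold change -2.64 against -3.10), miR-202-5p (-3.09 against -3.71) and miR-9826-5p (-1.01 against -1.09). Without minipig 1 at 10d, 2 were higher and 2 lower (0.487% each). With a single 20d library left, which is then assumed to vary like the earlier ones, the fits gave 0 higher and 4 lower rows without minipig 1 and 5 higher and 0 lower without minipig 2. Leaving out minipig 2 gave 11 rows in all at 10d, 34 at 14d and 41 at 17d. Without all of minipig 1, 1 row was higher and 9 lower. The common biological coefficient of variation was 0.677.

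**Figure D2:**
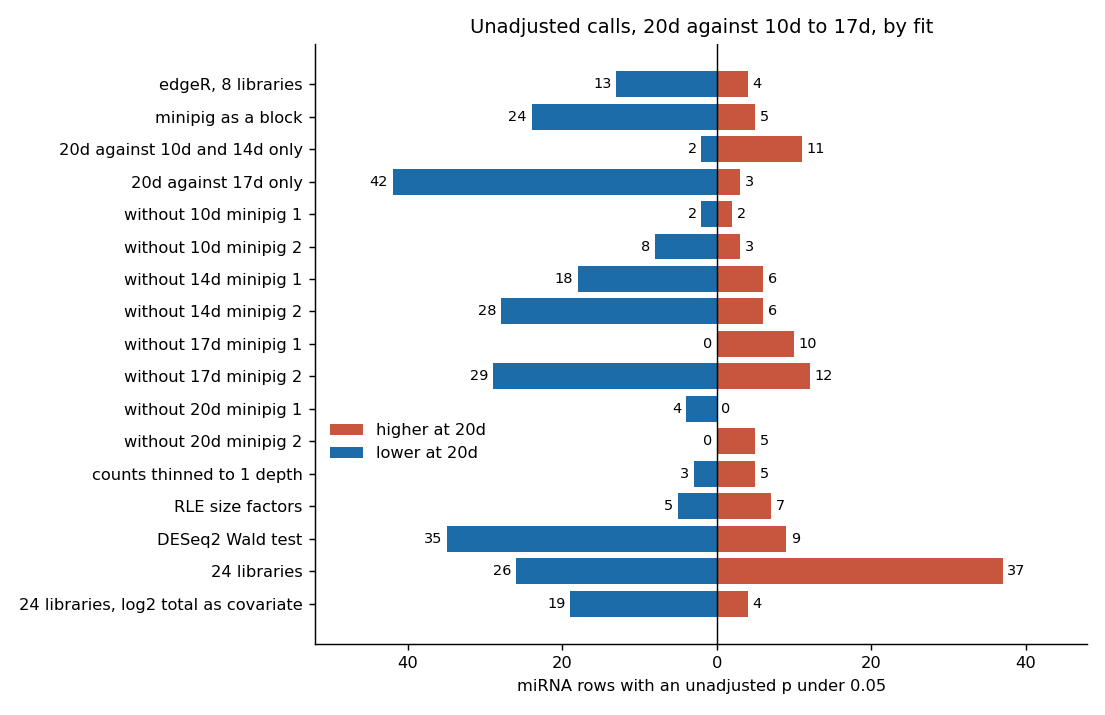
Number of miRNA rows with an unadjusted p under 0.05 that were higher (right) or lower (left) at 20d in each fit. The 13 lower calls of the fit on 8 libraries become 0 without the 17d library of minipig 1, while the number of higher calls ranges from 0 to 37.

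The row with the smallest p was miR-126-5p, one arm of a hairpin that lies within the endothelial gene EGFL7 and is abundant in vessel wall and platelets. Its level at 20d was 2887 CPM in minipig 1 and 1567 in minipig 2. At 10d, 14d and 17d it was 383.2, 1081 and 235 CPM in minipig 1 and 231, 602 and 411.1 in minipig 2. These earlier values rest on 6 to 96 counts each, and the 20d values on 1094 and 1118. Both 20d libraries lay above all 6 earlier ones, and also above the 4 pre-TBI libraries, which ranged from 328.7 to 928 CPM. The log2 fold change was 2.16 (SE 0.59, edgeR unadjusted p = 0.00423, adjusted p = 0.723), a 4.46-fold higher level. Over 24 alternative fits the direction was kept in 24 and the unadjusted p stayed under 0.05 in 23, the exception being the fit without minipig 1 at 20d (log2 fold change 1.65), with log2 fold changes of 1.65 to 2.62 when 1 library or 1 minipig was left out. Among the 24 alternatives, the fit without the low-count filter repeats the first fit, as no row was removed. In a fit over all 24 libraries of the series with enough counts, in which every time point informs the spread, the adjusted p of miR-126-5p was 0.00119. With the log2 total of each library added to that fit, the log2 fold change was 1.84 (edgeR unadjusted p = 0.00485, adjusted p = 0.577), so the adjusted call was lost. Without adjustment the fit over 24 libraries called 63 rows (15.3%), 37 higher and 26 lower (6.33%), and 23 (5.60%) with the log2 total, where 0 passed adjustment. With adjustment, and without the log2 total, it called 3, miR-126-5p, miR-9794-3p and miR-192, all higher (0.730%).

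The opposite arm, miR-126-3p, was at 826 and 778 CPM at 20d, inside the 509 to 1252 CPM of the earlier libraries, with a log2 fold change of -0.16 (SE 0.49). The ratio of the arms within a library was taken from CPM after a prior count of 2, scaled to library size, was added to each row. The ratio of miR-126-5p to miR-126-3p was 3.46 and 2.0 at 20d, 0.195 to 1.41 at 10d to 17d, and 0.848 to 1.17 before TBI. The ratios at 10d to 17d rest on 6 to 96 counts of miR-126-5p and are imprecise. The mean log2 difference in this ratio was 2.38 in minipig 1 and 2.39 in minipig 2. This ratio was looked at after the levels of both arms were seen. Of 78 hairpins with both arms in the table, 3 had a 5p to 3p ratio above all 6 earlier libraries at 20d (3.85%) and 5 had one below (6.41%), and miR-126 had the third largest mean difference of the 78.

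The row of miR-9794-3p, placed by its high number in the list called pig-lineage here, was at 1143 CPM in minipig 1 and 737 in minipig 2 at 20d. At 10d, 14d and 17d it was at 335, 394 and 235 CPM in minipig 1 and at 666, 478 and 247 in minipig 2, so the groups did not overlap. The pre-TBI libraries held 470 to 648 CPM. Its log2 fold change was 1.25 (SE 0.46, edgeR unadjusted p = 0.0210), the direction was kept in 24 of 24 alternatives, and the unadjusted p was under 0.05 in 22. It was 0.72 without minipig 1 and 0.90 without its 20d library, neither of which passed. In the fit over 24 libraries the adjusted p was 0.0115, and 0.577 with the log2 total. Only 6 to 58 counts stood behind each earlier value.

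miR-27a, encoded with miR-23a and miR-24 in one cluster and studied for its part in lipid metabolism and vessel growth, was at 4980 and 4963 CPM at 20d. It was at 1197, 2646 and 274 CPM in minipig 1 and at 1332, 2455 and 2335 in minipig 2 at 10d, 14d and 17d, all below both 20d values. The earlier values rest on 7 to 298 counts each, with the 7 in minipig 1 at 17d. Before TBI it ranged from 1550 to 4509 CPM. The log2 fold change was 1.53 (SE 0.68, edgeR unadjusted p = 0.0460). It was 1.32 without minipig 1 at 17d (unadjusted p = 0.0116) and 0.64 with the log2 total in the fit over 24 libraries (unadjusted p = 0.264). The row of miR-27b-3p had nearly the same counts and cannot be separated from it, with a log2 fold change of 1.54 (unadjusted p = 0.0502). The cluster partner miR-23a, at 647 and 827 CPM, stayed inside the earlier range. So did miR-23b, at 581 and 806 CPM, whose row had nearly the same counts and is not a separate measurement. In contrast, miR-24-3p, at 667.7 and 781 CPM, lay above the 168 to 619 CPM of the earlier libraries. It did not pass the test (log2 fold change 0.70, edgeR unadjusted p = 0.168). Of the 8 rows of the miR-23/24/27 list, 1 was called higher, beside 0.973% of all rows, and 0 lower, with a median log2 fold change of 0.24 against -0.15 over all rows. With the replicate block miR-27b-3p was called higher as well (unadjusted p = 0.0441), where 1.22% of all rows were called higher.

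miR-451 is made in maturing red cells and is one of the most abundant red cell miRNAs. It was at 2132 CPM in minipig 1 at 20d, above its own 479, 1002 and 666 at 10d, 14d and 17d, and at 852 CPM in minipig 2, above 538, 354 and 197. Each 20d library lay above the 3 earlier ones of its own minipig, but the groups overlapped across minipigs. The log2 fold change was 1.47 (SE 0.59, edgeR unadjusted p = 0.0299). It turned to -0.37 with the log2 total in the fit over 24 libraries. The pre-TBI libraries ranged from 470 to 9645 CPM, so 20d lay inside the range before TBI. miR-144, from the same primary transcript, also lay above the 3 earlier values of its own minipig in both animals, for example at 118 CPM in minipig 2 against 65.92 to 102.5 (log2 fold change 0.65, SE 0.46, unadjusted p = 0.184). miR-486, the third red cell miRNA, was at 15350 and 9147 CPM, inside 6113 to 26180 (log2 fold change -0.15, SE 0.78).

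The ratio of miR-451 to miR-23a is used in plasma work as a measure of red cell lysis. With the same prior count, it was 3.26 and 1.03 at 20d. At 10d, 14d and 17d it was 0.406, 1.06 and 0.812 in minipig 1 and 0.728, 0.409 and 0.377 in minipig 2. Each minipig had its highest post-TBI ratio of these at 20d, and the pre-TBI ratios ran from 0.441 to 10.6. The part of red cell lysis in the miR-451 level was not tested.

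**Figure D3:**
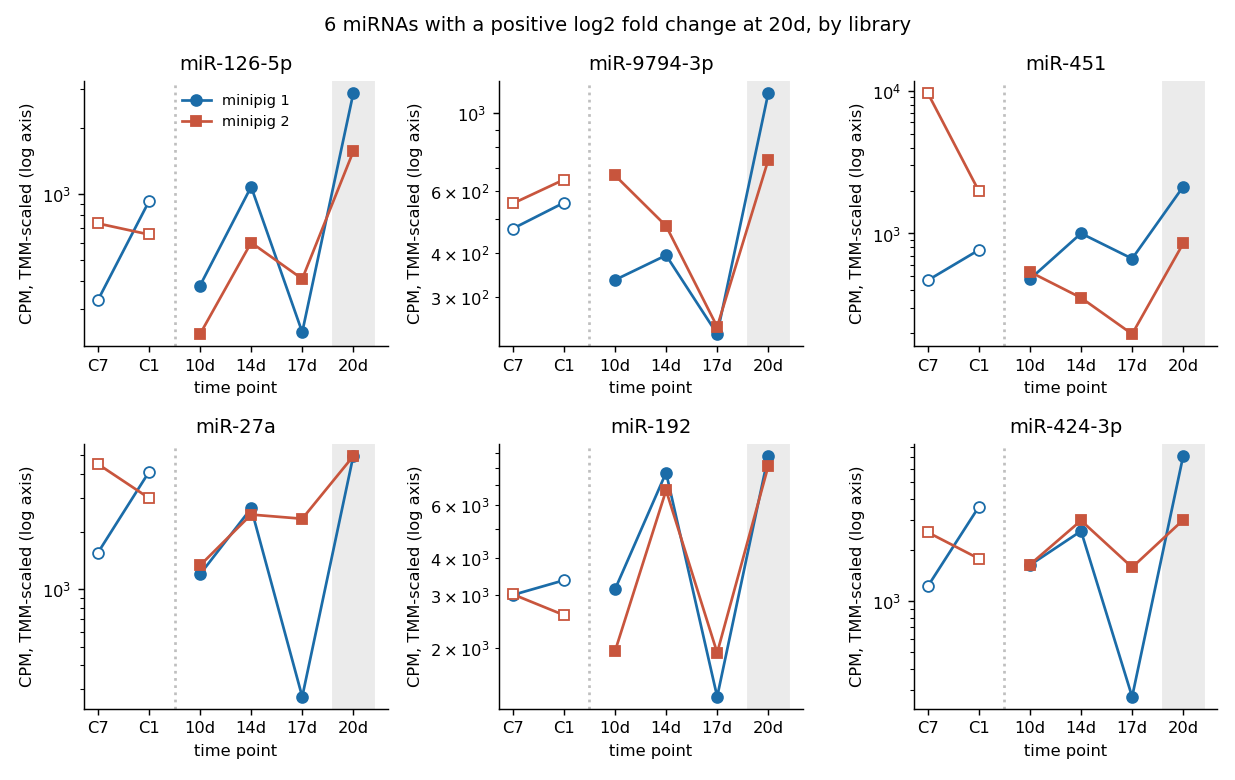
Levels in TMM-scaled CPM (log axes, which differ between panels and do not start at 0) of 6 miRNAs in each library of minipigs 1 and 2, with open symbols for pre-TBI and the grey band at 20d. In both minipigs the 20d value of each miRNA lies above its own values at 10d, 14d and 17d.

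A further 2 rows shown in that plot did not pass the unadjusted test in the 8 libraries. miR-192, a miRNA of liver, gut and kidney that p53 can induce, was at 8783 and 8115 CPM at 20d, against 3137, 7714 and 1371 in minipig 1 and 1947, 6732 and 1924 in minipig 2. Its log2 fold change was 1.15 (SE 0.72, edgeR unadjusted p = 0.141), and it had an adjusted p of 0.0115 in the fit over 24 libraries and 0.577 there with the log2 total. Both 20d values were also above the pre-TBI range of 2573 to 3364 CPM, but so were the 14d values. miR-424-3p was at 7139 and 2999 CPM, against 274 to 2975, with a log2 fold change of 1.503 (SE 0.70, unadjusted p = 0.0569). Over all rows, both 20d libraries lay above all 6 earlier ones for 19 rows (4.62%) and below them for 13 (3.16%). Within each minipig, 20d lay above its own 3 earlier libraries in both animals for 32 rows (7.79%) and below them for 44 (10.7%).

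The 13 rows lower at 20d were miR-135, miR-664-5p, miR-542-3p, miR-335, miR-202-5p, miR-9831-3p, miR-9826-5p, miR-1, miR-365-3p, miR-9818-3p, miR-376a-3p, miR-376a-5p and miR-421-5p. Their counts in the earlier libraries were low, for example 5 to 13 for miR-1 and 11 to 76 for miR-135. In 11 of the 13 the 20d library of each minipig lay below the 3 earlier ones of that minipig, beside 10.7% of all rows. In 7 both lay below all 6, beside 3.16% of all rows. The 13 were picked by p from these same libraries, so higher shares follow from the choice. In 9 of the 13 the highest of the 6 earlier values was that of minipig 1 at 17d.

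miR-202-5p, a miRNA best known from the gonads, was at 190 and 36.4 CPM at 20d. It was at 3472 CPM at 10d and 4114 at 17d in minipig 1 but at 405 there at 14d, and at 589, 280 and 98.7 in minipig 2. The log2 fold change was -3.71 (SE 1.59, edgeR unadjusted p = 0.0407), and -3.09 without minipig 1 at 17d (unadjusted p = 0.0805). With the replicate block the unadjusted p was 0.00749, and with the log2 total over 24 libraries the log2 fold change was 0.79. The unirradiated C7 library of minipig 1 held 3334 CPM and the other 3 pre-TBI libraries 268 to 309. The high level was therefore present in 3 libraries of one animal, one of them drawn before TBI, and these had totals of 24341, 59291 and 29159 counts. Minipig 2 had totals of 35762 counts at 10d, with 589 CPM, and 63441 at 17d, with 98.7 CPM. The cause of the high level was not tested.

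miR-135 had the same shape. It was at 121 and 54.7 CPM at 20d, against 1820, 191.4 and 1842 in minipig 1 and 282, 148.3 and 361.7 in minipig 2, and at 1221 CPM in the C7 library of minipig 1. The 20d values lay below all 6 earlier ones, with a log2 fold change of -3.10 (SE 1.20, edgeR unadjusted p = 0.0257). Without minipig 1 at 17d it was -2.64 (unadjusted p = 0.0528), and with the log2 total in the fit over 24 libraries it was 0.02.

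miR-664-5p, whose hairpin overlaps a small nucleolar RNA, was at 224 and 200 CPM at 20d and below all 6 earlier values, which were 1988, 450.5 and 2077 in minipig 1 and 395 to 461 in minipig 2. Its log2 fold change was -2.16 (SE 0.89, edgeR unadjusted p = 0.0343), and -1.79 without minipig 1 at 17d (unadjusted p = 0.0560). The pre-TBI libraries held 313 to 1738 CPM, so both 20d values were also below all 4 levels before TBI. With the log2 total over 24 libraries the log2 fold change was 0.63.

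miR-9826-5p was not highest in those libraries of minipig 1. It was at 135 and 118 CPM at 20d, below all 6 earlier values of 169 to 410 CPM, and the highest of these came from minipig 2 at 10d. The log2 fold change was -1.09 (SE 0.47, edgeR unadjusted p = 0.0415). It was -1.01 without minipig 1 at 17d (unadjusted p = 0.0519), and -1.52 with the log2 total in the fit over 24 libraries (unadjusted p = 0.0156). The pre-TBI range, 113 to 266 CPM, included both 20d values.

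**Figure D4:**
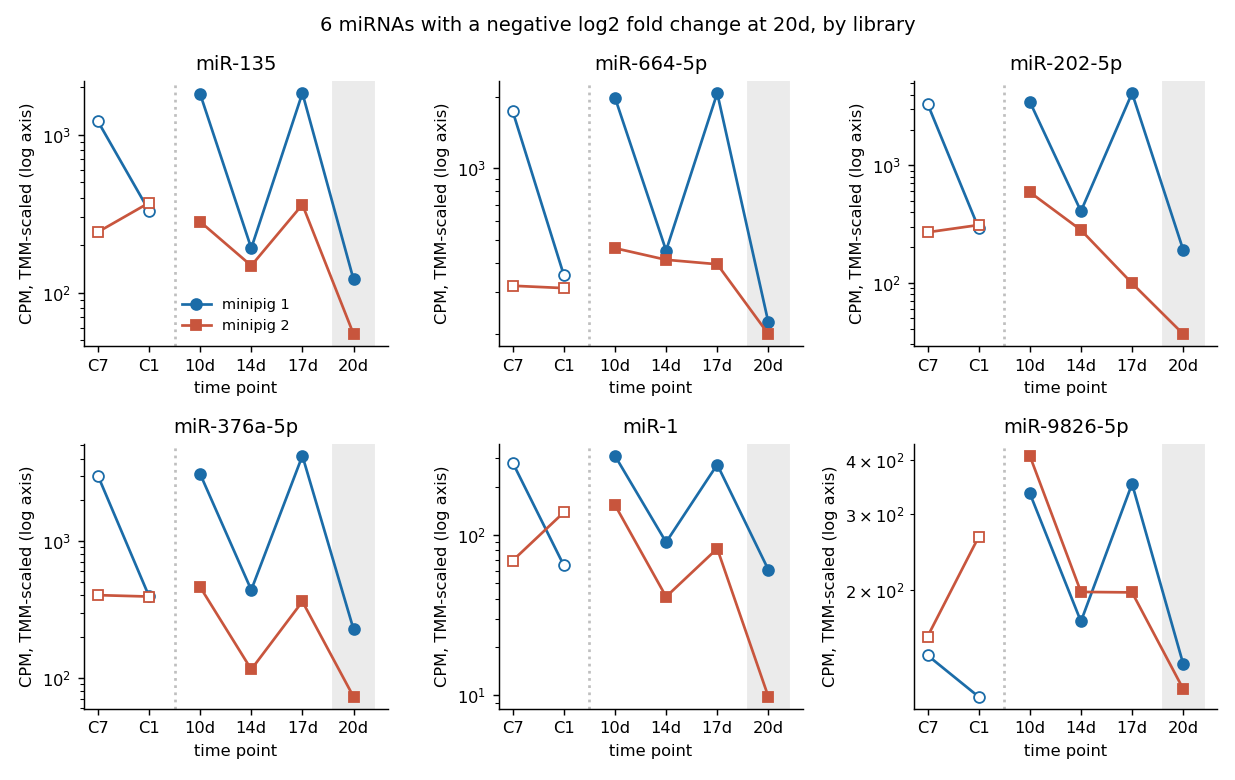
Levels in TMM-scaled CPM (log axes, which differ between panels and do not start at 0) of 6 miRNAs in each library of minipigs 1 and 2, with open symbols for pre-TBI and the grey band at 20d. For miR-202-5p, minipig 1 stands at 3334 CPM at C7, 3472 at 10d and 4114 at 17d, and near the level of minipig 2 at C1 and 14d.

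miR-1, expressed in heart and skeletal muscle, was at 60.7 and 9.81 CPM at 20d, from 23 and 7 counts, against 311, 90.1 and 274 in minipig 1 and 153.7, 41.2 and 82.2 in minipig 2. Its log2 fold change was -2.08 (SE 0.90, edgeR unadjusted p = 0.0421), and -2.29 with the minipig as a replicate block (unadjusted p = 0.00685). The call was lost without minipig 1 at 17d (unadjusted p = 0.0855), without it at 10d (0.0840) and with thinned counts (0.0961), and the log2 fold change was -0.98 with the log2 total over 24 libraries (0.351). The other skeletal muscle miRNA miR-206 was at 76.5 and 33.6 CPM, below the 3 earlier values of each minipig, with a log2 fold change of -1.23 (SE 0.62, unadjusted p = 0.0742, and 0.0294 with the replicate block). The rows of miR-133a-3p and miR-133b, which had nearly the same counts, were inside the earlier range, with log2 fold changes of 0.22 and 0.05. Of the 8 muscle and heart rows, 0 were called higher and 1 lower, beside 0.973% and 3.16% of all rows, with a median log2 fold change of -0.63. With the replicate block 2 were lower, beside 5.84% of all rows.

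The miRNAs of the imprinted DLK1-DIO3 locus gave 0 higher and 2 lower calls among 20 rows, beside 0.973% and 3.16% of all rows, with a median log2 fold change of -0.59. The 2 were the arms of miR-376a. miR-376a-5p was at 227 and 72.9 CPM at 20d, against 3089, 439 and 4193 in minipig 1 and 461, 115 and 361.7 in minipig 2, with 3005 CPM in the C7 library of minipig 1. Its log2 fold change was -3.25 (SE 1.46, edgeR unadjusted p = 0.0491), and -2.56 without minipig 1 at 17d (unadjusted p = 0.0944). The neighbours miR-376b, miR-376c and miR-494 had log2 fold changes of -2.49, -2.97 and -2.66 without passing the test. With the minipig as a replicate block, miR-376c (unadjusted p = 0.0360) and miR-494 (0.0279) passed, which made 4 lower calls in the list, beside 5.84% of all rows. In the same locus miR-432-3p, at 5650 and 7588 CPM, lay above the 980 to 5389 CPM of the earlier libraries, and its other arm miR-432-5p, at 114 and 85.5 CPM, lay below their 115 to 666 CPM. Neither passed the test (unadjusted p = 0.185 and 0.0662).

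The list of the miR-424 and miR-503 cluster had 1 lower call, miR-542-3p (log2 fold change -1.62, SE 0.69, and unadjusted p = 0.0565 without minipig 1 at 17d), among 10 rows, beside 3.16% of all rows. With the replicate block 2 rows of this list were lower, beside 5.84% of all rows. Its median log2 fold change was -0.99, the second lowest of the 27 lists, although miR-424-3p at 1.503 was among the highest values of all. Leukocyte miRNAs gave 0 calls among 9 rows, beside 4.14% of all rows, with a median of -0.51. The lymphocyte miRNA miR-150 was at 565 and 678 CPM, inside 274 to 1266, and miR-142-3p, found in all blood cell lineages, was at 97.7 and 171 CPM, inside 51.2 to 196. miR-146a-3p, an arm of an inflammation-linked hairpin, was at 296 and 65.9 CPM, below the 3 earlier values of each minipig (log2 fold change -2.76, SE 1.31, unadjusted p = 0.0595). With the minipig as a replicate block, 2 of the 9 leukocyte rows were called lower, miR-146a-3p and miR-146b, beside 5.84% of all rows.

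Among platelet miRNAs, miR-126-5p was the only one of 9 rows called, beside 4.14% of all rows, and the median log2 fold change was -0.10. miR-191 was at 6310 and 3553 CPM, inside 980 to 11120, and miR-151-5p was at 2275 and 4240 CPM (log2 fold change 0.63, SE 0.55). The summed level of the 9 platelet rows was 18200 and 14120 CPM at 20d, against 8581 to 25210 at 10d to 17d and 19250 to 29130 before TBI. The 3 red cell rows summed to 17700 and 10120 CPM at 20d, against 6896 to 26820 and 15710 to 88580. The 9 leukocyte rows summed to 27630 and 2463 CPM, against 5100 to 174900 and 23050 to 113200. Rows of all 3 lists were thus detected at every one of these times. Some of them, such as miR-126 and miR-146a, are also made outside blood cells. Single rows made up much of some sums, which are therefore not levels of a cell type. At 20d miR-486 held 15350 and 9147 CPM of the red cell sums. In minipig 1 at 17d miR-146a-5p held 84560 CPM of the leukocyte sum of 174900.

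**Figure D5:**
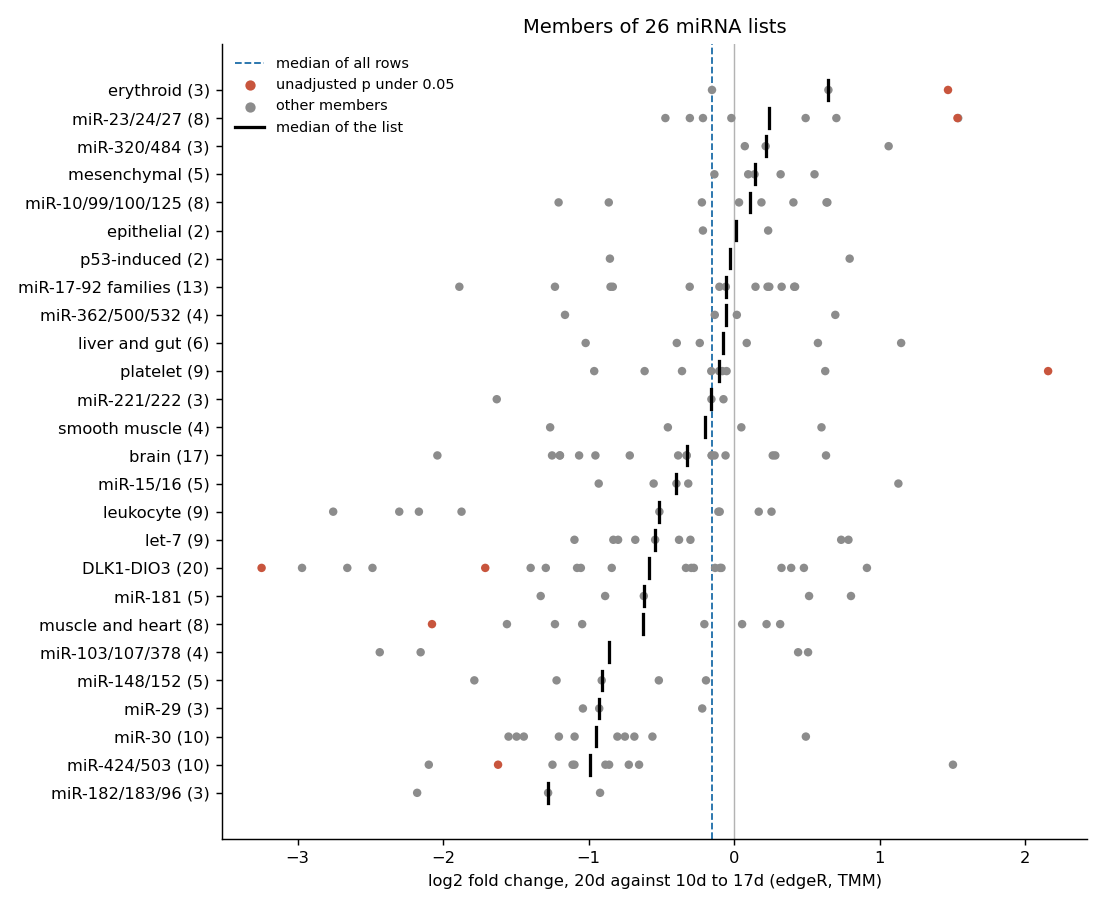
Log2 fold change of 20d against 10d to 17d for each member of 26 miRNA lists, pig-lineage rows left out (number of rows in brackets), with the list median as a black bar and the median of all rows as a dashed line. Members with an unadjusted p under 0.05 are coloured, and list medians run from -1.28 for the miR-182 and miR-183 cluster to 0.65 for the erythroid list.

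No row was called in the lists of let-7 (9 rows, median log2 fold change -0.54), miR-15/16 (5, -0.40), miR-30 (10, -0.95), miR-10, miR-99, miR-100 and miR-125 (8, 0.11), miR-181 (5, -0.62), miR-148 and miR-152 (5, -0.91), miR-221 and miR-222 (3, -0.16) and miR-29 (3, -0.93). Nor was any in miR-17-92 families (13, -0.06), miR-103, miR-107 and miR-378 (4, -0.86), miR-320 and miR-484 (3, 0.22), miR-362, miR-500 and miR-532 (4, -0.06), brain (17, -0.33) and miR-182, miR-183 and miR-96 (3, -1.28). The same held for liver and gut (6, -0.08), epithelial (2, 0.01), smooth muscle (4, -0.20), mesenchymal (5, 0.14) and p53-induced miRNAs (2, -0.03). With 4.14% of all rows called, 0 calls in a list of 2 to 17 rows is near that share and is no result about the list. Among 111 pig-lineage rows 1 was higher and 3 lower, beside 0.973% and 3.16% of all rows (median -0.07), and among the rows in no list 0 were higher and 6 lower (median -0.06). The pig-lineage list was taken by number only, from miR-4331 upwards, and the lineage of its rows was not checked.

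Setting 20d against single earlier phases changed the picture. Against 17d alone, 3 rows were higher (0.730%) and 42 lower (10.2%). Against 10d and 14d alone, 11 were higher (2.68%) and 2 lower (0.487%). miR-126-5p and miR-9794-3p were among the higher rows of both. The next rows were picked after their values were seen. Against 10d and 14d the higher rows also included miR-16 (log2 fold change 1.23), which is abundant in blood cells, miR-26a (1.43) and miR-181a (2.90). miR-181a was at 1291 and 16690 CPM at 20d, against 311 to 2100 CPM at 10d and 14d, but at 130300 CPM in minipig 2 at 17d. miR-182 likewise was at 25810 CPM in minipig 2 at 20d, between 184700 at 17d and 676 at 14d, while minipig 1 held 771 CPM at 20d.

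None of the most abundant rows passed the unadjusted test, and the earlier libraries differed widely among themselves in these rows. miR-4332 was at 201800 and 97890 CPM at 20d, against 113700, 125100 and 9482 in minipig 1 and 108300, 137600 and 107000 in minipig 2 (log2 fold change 0.58, SE 1.24). miR-484, a miRNA often used as a plasma reference, was at 133300 and 58860 CPM, against 45400, 91640 and 3252 in minipig 1 and 34500, 68290 and 33160 in minipig 2 (log2 fold change 1.06, SE 1.16). Both rows were far lower in minipig 1 at 17d than in any other of the 8 libraries.

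A second set of abundant rows stood high in the same libraries of minipig 1 as miR-202-5p. miR-146a-5p, induced by inflammatory signalling, was at 13270 and 566 CPM at 20d, against 75840, 14170 and 84560 in minipig 1 and 8709, 1796 and 1315 in minipig 2, and at 54290 CPM in the C7 library of minipig 1. miR-124a, a neuronal miRNA, was at 14060 and 1700 CPM, against 79220, 15190 and 81310 in minipig 1 and 9503, 2950 and 6248 in minipig 2, with 55080 CPM in that C7 library. miR-183, miR-490-3p and miR-186, which come from unrelated hairpins, stood at 75000 to 75390 CPM at 10d and 79310 to 83110 at 17d in minipig 1. Log2 fold changes of these 5 rows ran from -2.18 to -1.98, and none had an unadjusted p under 0.05. At 20d minipig 1 held 11980 to 14070 CPM of each, below its own 14d values of 14170 to 16260.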

How the data were processed

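Small RNA of plasma had been sequenced on NextSeq after TruSeq small RNA library preparation. The authors trimmed reads with Cutadapt, mapped them with Bowtie to the pig genome and then to miRBase pig miRNAs, and quantified them with miRDeep2, and the deposited table holds raw counts per miRNA row. Equimolar pooling, as the methods state it, leaves the totals open to library quality. Rows over 0.5 CPM in 10% of the libraries were tested (all passed). Counts were TMM-scaled and tested with edgeR 4.0.16 (R 4.3.3) by quasi-likelihood, 20d against 10d to 17d, with Benjamini-Hochberg adjustment, and SE was derived from the F statistic. Levels are TMM-scaled CPM. DESeq2 1.42.0 and 24 alternative settings were run, and the scripts were tested on simulated data. The setting without the low-count filter repeats the edgeR fit, as all rows had passed. The same animals gave both groups, so minipig numbers, taken from the sample titles, pair the libraries. The mean correlation of deviations from the 2 group means was 0.173 over 12 same-minipig pairs and -0.325 over 15 others. By construction the deviations at 20d mirror each other and those at 10d to 17d cancel out, so these values do not test the pairing. Nothing states that libraries were made separately, so p-values measure the spread between these samples only, and repeated samples of 2 animals are not independent. No libraries were duplicates (smallest chi-square per degree of freedom 18.21). Some rows had identical counts (407 distinct rows), and 16 pairs were nearly identical. Rows were picked by rule where they were called without adjustment or had the smallest p outside the range of their own minipig. The most abundant rows and the leading member of each list were also picked by rule. Other rows described, such as further members of a list and opposite arms of a hairpin, followed none of these rules. They were picked with their values known. The members and lists were chosen with earlier results of these data known. No sequences are shown.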

Additional observations from a re-analysis of the deposited data

Results flagged for a closer look

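In 6 of 52 groups of 6 libraries at 10d to 17d, 1 library lay far from the other 5 by Dixon's test. Chance gives this for about 1 in 20 independent groups. These groups were values of the same 6 libraries and are not independent, so the count cannot be set against that rate. Every flag but that of miR-181a came from minipig 1 at 17d, the library with the lowest total. The rows of miR-27a and miR-27b-3p had nearly the same counts. Minipig 1 at 17d was low for miR-27a (8.16 log2 CPM), miR-27b-3p (7.94), miR-4332 (13.2), miR-484 (11.7) and miR-92b-3p (11.6). Minipig 2 at 17d was high for miR-181a (17.0 log2 CPM).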

How the results depend on the processing

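Adjusted calls were 0 in every fit on the 8 libraries or fewer, 3 in the fit over 24 libraries and 6 (5 higher and 1 lower) when a replicate block for the animal was added, but 0 with the log2 total as a covariate (smallest adjusted p 0.577). The block added miR-27a (edgeR adjusted p = 0.0372) and miR-27b-3p (0.0399), higher, and miR-135 (0.0399), lower, to the 3. The rows of miR-27a and miR-27b-3p had nearly the same counts and are not separate measurements. Unadjusted calls, 17 in the edgeR fit, were 44 with DESeq2's Wald test, 33 with edgeR's likelihood ratio test, 29 with the minipig as a replicate block, 8 with thinned counts and 27 with both, 63 over 24 libraries, 79 there with the replicate block, and 45 against 17d alone. When 1 library or 1 minipig was left out they ranged from 4 to 41. The fit without the filter on low counts gave the same 17, because the filter had removed no row, so it is no separate check. With the log2 total as a covariate over 24 libraries, a setting chosen after seeing the data, as were the 24-library fit with the block and the thinned distance, 8 called miRNAs changed sign: miR-451 (-0.37), miR-135 (0.022), miR-664-5p (0.63), miR-202-5p (0.79), miR-9831-3p (0.48), miR-376a-5p (0.76), miR-542-3p (0.042) and miR-365-3p (0.62). The cause was not tested. The difference in distance from the own pre-TBI libraries was -0.35 against 17d alone and -0.161 to 0.18 when libraries were left out, and that in the share of miR-4332 was -0.0706 to 11.6 percentage points. The 17d library of minipig 1 had 160 rows under 10 counts and the 20d libraries 4 and 3, so low rows were measured less precisely before 20d.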
